A study of Mus musculus with 6 samples.

Results

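Heterotrimeric G proteins carry signals from receptors with 7 membrane passes, written here as G protein-coupled receptors, into the cell. An alpha subunit that binds GTP parts from a beta and gamma dimer, both act on effector enzymes, and proteins with a regulator of G protein signalling (RGS) domain speed the return of the alpha subunit to its resting state. In dendritic cells this system is best known for carrying chemokine and nucleotide signals that steer migration. The genes described here are 44 listed by name: 13 alpha, 5 beta and 9 gamma subunit genes and 17 RGS genes. A gene counted as measured where a probe set of the array carries its symbol alone, and where a gene has several, the brightest by its 6-array mean was used. This gave 42 of the 19937 genes measured. Gnas, the main stimulatory alpha subunit, has its probe set annotated with a second symbol, and Rgs10 has none listed, so both were not analysed here.

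The cells were plasmacytoid dendritic cells (pDCs), interferon-producing cells of the immune system, taken from mouse spleen as cells positive for B220 and SiglecH. There were 3 arrays from wild-type (WT) mice and 3 from IRF8-deficient (KO) mice, with no treatment and no time course named. The labels do not give the strain or age of the mice, how or in which cells Irf8 was altered, or whether each array came from its own animal. P-values therefore measure the spread between these arrays, which may be technical. Values are deposited log2 levels, a difference subtracts the WT mean from the KO mean, its standard error (SE) comes from a limma fit to the whole table, and adjusted p-values are Benjamini-Hochberg values over all 19937 genes from that fit, called at 0.05. In bulk RNA, fewer cells of a type and less RNA per cell cannot be told apart.

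The arrays had medians from 5.53 to 5.56. The second principal component, with 23.4% of the variance, separated the WT and KO arrays numbered 1 from the remaining 4, and KO replicate 1 lay farthest out. Irf8 itself was at 10.14 ± 0.15 in the WT arrays and at 10.47 ± 0.32 in the KO arrays (SD, n = 3 each). Since the altered part of Irf8 is not named, this probe set gives no check of the KO labels, on which every direction rests. Siglech stood at 12.62 in WT and 12.27 in KO. Of 11 measured pDC markers 4 were called lower, and in KO replicates 1 to 3 the list's median shift from the WT mean was -0.44, -0.71 and -0.45. Among markers of other cells, neutrophil genes shifted by 3.71 in KO replicate 1 against 0.33 and 0.06 in the other KO arrays. Cell cycle genes shifted by 2.02 against 0.40 and 0.33. In WT replicates 1 to 3 the neutrophil shifts were 0.26, -0.12 and -0.22. The neutrophil marker S100a8 read 9.34, 4.87 and 4.44 in WT and 12.70, 8.99 and 7.48 in KO. Macrophage and monocyte genes had a lower median in all KO arrays. The shifts were -1.34, -1.24 and -1.50, against -0.52, 0.29 and 0.18 in WT replicates 1 to 3. Of 11 genes 10 differed downward, 2 of them, C1qb and Cd68, past the threshold, and Ccr2 differed by 0.41. The summed linear level was 2190 to 2320 in KO against 3920 to 4600 in WT. It includes Cd68, the brightest of the list, at 11.32 in WT and 9.77 in KO. The macrophage markers Adgre1, C1qa, Mertk and Spic had low mean signal. Of 9 B cell markers 4 were called higher, Blk by 2.42 (mean 6.52 in WT, 8.94 in KO), Cd79a by 1.65, Cd22 by 1.51 and Fcer2a by 0.60. The other 5 were not called: Pax5 differed by 0.32, Cd79b by -0.08, Cr2 by -0.10, Fcrla by -0.12 and Ms4a1 by -0.17. Cd79a, Cr2 and Ms4a1 had low mean signal. The summed linear level of the list was 1320 to 1400 in KO against 813 to 879 in WT. Of 10 conventional dendritic cell markers 3 were called lower, Clec9a (-6.32), Cd209a (-3.73) and Clec10a (-2.62), and 2 higher, Itgax (1.78) and Cd8a (1.51). The part of these shifts in the results below was not tested.

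In IRF8-deficient pDCs the arrays gave lower levels of several G protein subunits and of Rgs1, and a higher level of Rgs12. Of the 42 measured genes, 6 were lower and 1 was higher in KO by limma at the threshold. These were the alpha subunit genes Gnai1, Gna15 and Gna11, the beta subunit gene Gnb4, the gamma subunit gene Gng2 and Rgs1 on the lower side, and Rgs12 on the higher. That is 16.7% of the measured genes, where 4.38% of all genes passed, and 14.3% lower where 2.08% of all genes were. The share called higher, 2.38%, was near the 2.3% of all genes. The members were chosen with earlier results of these data known, so these shares describe the set and are no test of it. In 13 of the 42 the KO and WT arrays did not overlap, against 20.4% of all genes. The median difference of the 42 was -0.07, and that of all genes -0.04. An unequal-variance test of each gene on its own called none of the 7 (0 higher and 0 lower), and 2 genes in each direction over the whole table.

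**Figure D1:**
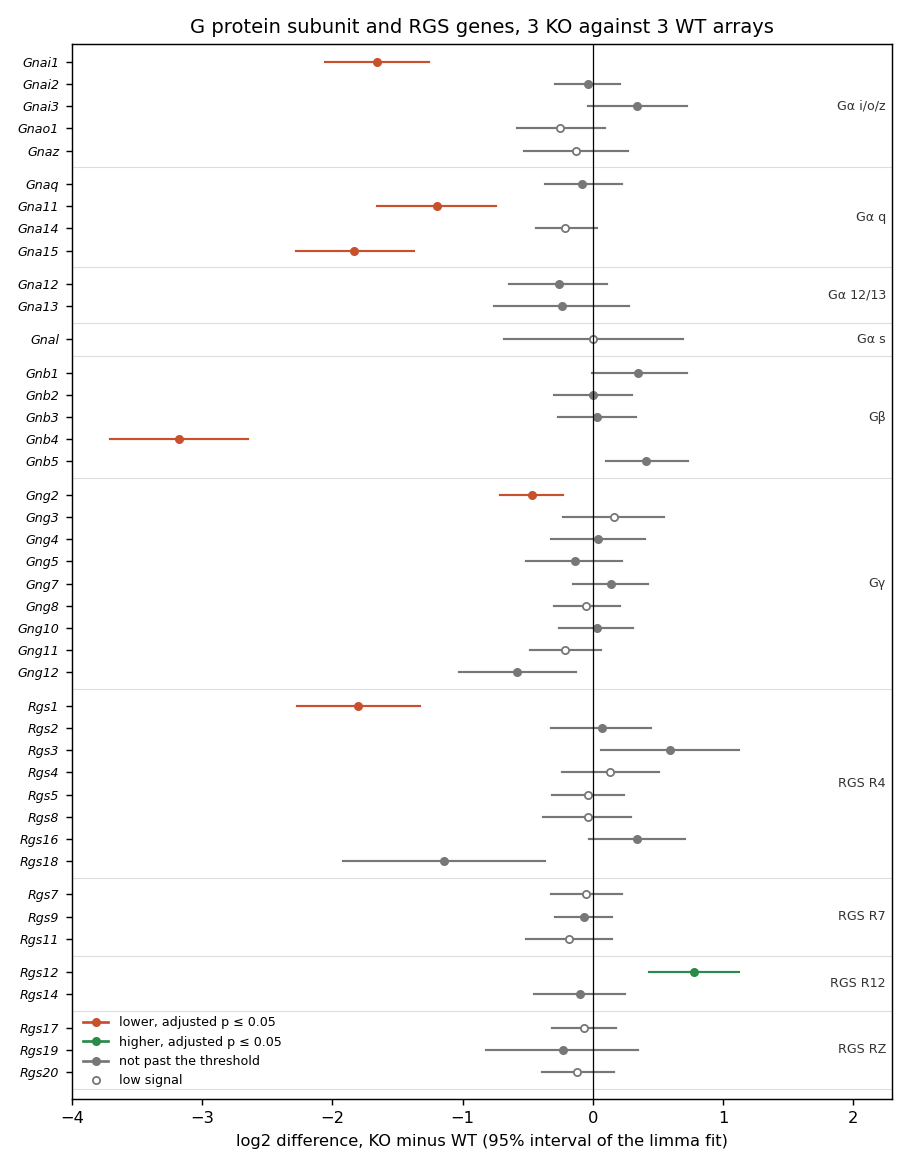
Log2 difference, KO minus WT, of the 42 measured genes by subunit or RGS subfamily, with the 95% interval of the limma fit. Orange genes were lower and the green gene higher at an adjusted p of 0.05. Grey genes did not pass, and open symbols mark the 14 genes of low signal. Gnb4, at -3.18, lies farthest from 0.

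Not every member gives a readable signal in these cells. As a stand-in for background, chosen with the values known, the 95th percentile of the mean levels of 1027 olfactory receptor genes was taken, which was 5.35. The means of 14 members lay below it, among them Gnao1, the alpha subunit typical of neurons, Gng3, Gng11, Rgs4, Rgs5 and Rgs7. None of these 14 passed the threshold in limma, their differences ran from -0.25 to 0.16, and their lowest adjusted p was 0.381. The other 28 had higher means. Probe sets differ in how brightly they report the same amount of RNA, so levels of different members are not ranked against each other. Where the values of related members are subtracted within an array, the change of that difference between genotypes is read and not its level.

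Among the inhibitory alpha subunits, which lower cyclic AMP and serve most chemokine receptors, only Gnai1 was called, and it fell. Gnai1 read 6.82, 6.66 and 7.18 in WT replicates 1 to 3 and 5.35, 4.99 and 5.35 in KO. The 3 KO arrays lay together, more than 1 log2 unit below the lowest WT array, and 2 of them were under the low-signal limit of 5.35, so the size of the fall may be understated. The difference was -1.66 (SE 0.17, limma adjusted p = 0.00229), and it ran from -1.77 to -1.51 with any single array left out (highest adjusted p 0.0134). Gnai2, the form with a wide role in leukocyte migration, read 11.04, 10.85 and 10.91 in WT and 10.92, 10.82 and 10.96 in KO. The groups of Gnai2 overlapped and its difference was -0.04, with a 95% interval of -0.29 to 0.21. Gnai3 differed by 0.34 (interval -0.04 to 0.72, limma adjusted p = 0.372), with KO replicates 2 and 3, at 8.59 and 8.66, above all WT arrays and KO replicate 1, at 8.13, among them. Gnaz and Gnao1 were of low signal. Beside Gnai1 on chromosome 5, the taste subunit gene Gnat3 (0.01) did not pass, but its signal was low, with a mean of 2.92. Cd36, the scavenger receptor gene next to Gnat3, fell by 1.17 (limma adjusted p = 0.00852), also at low signal. Magi2, on the other side of Gnai1, has no named probe set.

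The alpha subunits of the Gq class switch on phospholipase C beta, and 2 of the 4 were called lower. Gna15, the form found mainly in blood cells and able to couple to many receptors, read 7.28, 6.90 and 7.21 in WT and 5.50, 5.51 and 4.90 in KO. KO replicate 3 was the lowest and lay under the low-signal limit, and no KO array came near the WT range. The difference was -1.83 (SE 0.19, limma adjusted p = 0.00251; -1.94 to -1.63 with single arrays left out). Gna11, a broadly expressed relative, read 8.36, 7.91 and 8.43 in WT and 7.29, 7.11 and 6.70 in KO, 2.29-fold lower. Its difference was -1.20 (SE 0.20, limma adjusted p = 0.016), and it did not pass when any of WT replicates 1 and 3 and KO replicates 2 and 3 was left out (adjusted p 0.0506 to 0.0704). Gnaq, which shares its effectors with Gna11, read 8.66, 8.40 and 8.29 in WT and 8.29, 8.40 and 8.42 in KO. The groups of Gnaq overlapped, with a difference of -0.08 and an interval of -0.37 to 0.22. Gna14 was of low signal.

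Gna15 and Gna11 are next to each other on mouse chromosome 10, on the same strand, with no protein-coding gene between them in the RefSeq annotation of GRCm38.p6. The genes on either side did not share the fall. S1pr4, a sphingosine phosphate receptor gene beside Gna15, differed by -0.11 (limma adjusted p = 0.865), and Tle5, a corepressor gene beside Gna11, by 0.03 (0.968). The RefSeq sequences just before the start of both genes and of Gnai1 are shown because these 3 alpha subunit genes fell. They are 250 bases each, on the minus strand, 5′ to 3′, and capitals mark matches to any of 5 motifs searched on both strands. Gna15 lies at chr10:81524226-81524475, Gna11 at chr10:81545163-81545412 and Gnai1 at chr5:18360414-18360663 (GRCm38.p6).
Gna15: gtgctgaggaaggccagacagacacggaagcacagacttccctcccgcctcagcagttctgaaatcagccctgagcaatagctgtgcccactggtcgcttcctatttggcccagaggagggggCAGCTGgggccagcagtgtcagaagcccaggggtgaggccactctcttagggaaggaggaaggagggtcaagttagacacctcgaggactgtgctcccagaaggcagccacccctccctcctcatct
Gna11: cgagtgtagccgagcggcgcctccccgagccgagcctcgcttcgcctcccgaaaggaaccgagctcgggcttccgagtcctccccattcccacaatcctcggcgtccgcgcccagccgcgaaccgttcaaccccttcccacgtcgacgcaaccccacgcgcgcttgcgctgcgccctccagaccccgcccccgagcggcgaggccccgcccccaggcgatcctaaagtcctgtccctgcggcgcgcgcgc
Gnai1: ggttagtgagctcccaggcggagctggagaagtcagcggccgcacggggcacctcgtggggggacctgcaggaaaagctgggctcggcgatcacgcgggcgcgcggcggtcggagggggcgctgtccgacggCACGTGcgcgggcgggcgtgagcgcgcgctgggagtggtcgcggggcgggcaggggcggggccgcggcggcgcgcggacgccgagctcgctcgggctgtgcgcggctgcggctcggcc

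The motifs were searched in windows of 300 bases, from 250 before to 50 after the start, in a table of 32851 promoters that held 45 promoters of 33 members, 5 of the 7 called ones among them. For Gnb4 and Rgs1 no promoter was listed, so these genes were not searched. The interferon response element, GAAA repeated after any 2 bases, stood in 3.44% of all promoters and in 1 of the 45, that of Gna13. The composite element of ETS and IRF factors, GGAA and GAAA with any 2 bases between, stood in 2.72% of all promoters and in 0 of the 45. The E-box CACGTG, which MYC can bind, stood in 7.15% of all and in 6 of the 45, Gnai1 among them, where it is in capitals above. The E-box CAGCTG, of the kind bound by E proteins, stood in 16.3% of all and in 11 of the 45, with matches for Gna15, Gnai1, Gng2 and Rgs12. The match of Gnai1 to CAGCTG falls in the bases after the start, which are not printed. CAGGTG stood in 20.2% of all and in 6 of the 45, none of them of a called gene. A match describes letters in a window and is not evidence of binding.

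The alpha subunits of the G12 and G13 class, which act on RhoA through exchange factors, did not pass the threshold. Gna13, a subunit that restrains the migration of B cells, read 9.97, 10.56 and 10.34 in WT and 9.61, 10.25 and 10.27 in KO. Gna12 read 7.90, 7.98 and 8.39 in WT and 7.95, 7.65 and 7.88 in KO. In both genes the groups overlapped, and the intervals of the differences were -0.76 to 0.28 for Gna13 and -0.64 to 0.11 for Gna12. Gnal, the stimulatory subunit of olfactory neurons, was of low signal and differed by 0.00.

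Among the beta subunits, Gnb4 was the 1 called, with the largest difference of all 42 members. Beta subunits form the fixed partner of a gamma subunit and let the dimer act on ion channels, phospholipases and phosphoinositide 3-kinase gamma. Gnb4 read from 7.24 in WT replicate 2 to 8.12 in WT replicate 1, with WT replicate 3 between them, and 4.75, 4.60 and 4.49 in KO. All 3 KO arrays were under the low-signal limit and lay closer together than the WT arrays, so the fall may be understated. The difference was -3.18 (SE 0.23, limma adjusted p = 0.000406), from -3.45 to -3.01 with single arrays left out (highest adjusted p 0.00477). Gnb4's protein-coding neighbours on chromosome 3 differed little, Mfn1 by 0.19 (limma adjusted p = 0.562) and Actl6a by 0.26 (0.495).

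The other beta subunits showed no fall. Gnb2 read 8.63, 8.35 and 8.54 in WT and 8.57, 8.33 and 8.61 in KO, with overlapping groups and an interval of -0.30 to 0.30 for the difference. Gnb1 read 8.93, 8.88 and 8.89 in WT and 8.91, 9.37 and 9.46 in KO. KO replicates 2 and 3 of Gnb1 lay above all WT arrays and KO replicate 1 within them. The difference was 0.35 (limma adjusted p = 0.335), and without KO replicate 1 it was 0.52 and passed (0.0399). Gnb5, which differs from the other beta subunits in pairing with RGS proteins of the R7 family, read 5.69, 5.71 and 5.57 in WT and 6.26, 5.84 and 6.10 in KO. Its groups did not overlap, and the difference of 0.41 did not pass (limma adjusted p = 0.169). Gnb3 differed by 0.03.

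**Figure D2:**
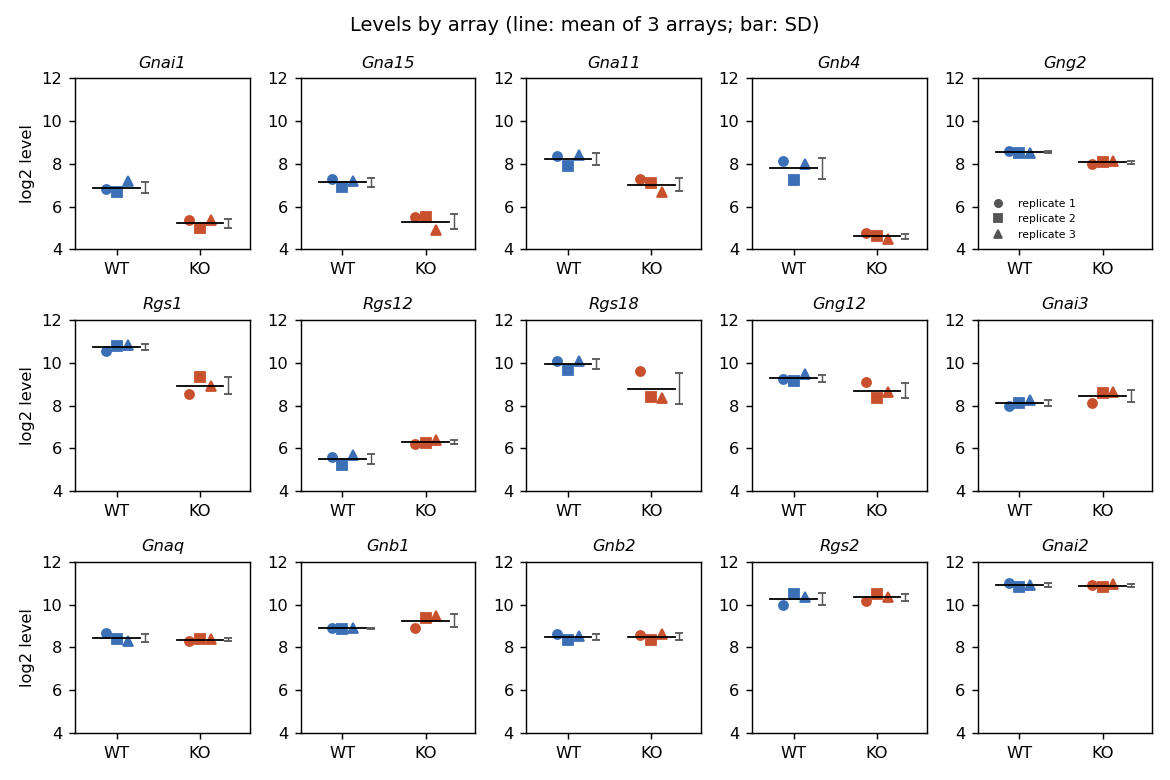
Log2 levels by array of 15 members, WT in blue and KO in orange, with symbols for replicates 1 to 3, a line at the mean of 3 arrays and a bar for the SD. In the panels of Gnai1, Gna15, Gna11, Gnb4 and Rgs1 the KO points lie clear of WT. Those of Gnaq, Gnb2, Rgs2 and Gnai2 overlap, and KO replicate 1 stands above the other KO arrays for Rgs18 and Gng12.

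Gamma subunits anchor the beta subunit to the membrane, and of 9 measured 1 passed. Gng2 read 8.59, 8.53 and 8.50 in WT and 8.01, 8.07 and 8.14 in KO. Both groups were tight and did not overlap, and the difference of -0.47 (SE 0.10) was a 1.38-fold fall at the edge of the threshold (limma adjusted p = 0.0457). The call was lost without any one of the 6 arrays (0.0739 to 0.168), with array medians centred (0.0739), among bright genes (0.0543) and with a variance trend (0.112). Gng12 read 9.23, 9.16 and 9.47 in WT and 9.10, 8.38 and 8.63 in KO. KO replicate 1 lay just under the WT arrays and the other KO arrays lower. The difference of Gng12 was -0.58 (limma adjusted p = 0.181), and -0.77 without KO replicate 1 (0.0237), the array in which neutrophil genes shifted by 3.71.

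The gamma subunit genes Gng5 and Gng10 showed no called change. Gng5 read 11.21, 10.95 and 10.81 in WT and 11.08, 10.81 and 10.65 in KO, and Gng10 read 10.13, 9.80 and 9.88 in WT and 10.05, 9.92 and 9.92 in KO. Both pairs of groups overlapped, with intervals of the difference of -0.51 to 0.22 and -0.26 to 0.31. Gng4 and Gng7 differed by 0.04 and 0.14, and Gng3, Gng8 and Gng11 were of low signal.

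Of the 16 measured RGS genes, 1 was called lower and 1 higher. Rgs1, which damps chemokine receptor signals through Gi and Gq in lymphocytes, read 10.57, 10.80 and 10.85 in WT and 8.55, 9.35 and 8.94 in KO. The groups were more than 1 log2 unit apart, and KO replicate 1 was the lowest. Rgs1 was 3.48-fold lower, a difference of -1.80 (SE 0.20, limma adjusted p = 0.00311), from -2.00 to -1.60 with single arrays left out (highest adjusted p 0.0222). Rgs1 is also an activation gene. Immediate early and handling genes shifted by 0.20, 0.42 and 0.46 in KO replicates 1 to 3, with 1 of 15, Ier3, called higher, and their part in the Rgs1 level was not tested. Rgs2, which acts mainly on Gq, read 9.98, 10.51 and 10.35 in WT and 10.19, 10.52 and 10.34 in KO, with overlapping groups and an interval of -0.32 to 0.45.

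Rgs18, an RGS gene of platelets and myeloid cells, did not pass, and its KO arrays differed widely. It read 10.08, 9.69 and 10.07 in WT and 9.64, 8.42 and 8.35 in KO, so KO replicate 1 lay beside the WT arrays and the other 2 KO arrays more than 1 log2 unit lower. The difference was -1.14 (SE 0.33, limma adjusted p = 0.123). Without KO replicate 1 it was -1.56 (0.00172), and with both arrays numbered 1 left out -1.50 (0.00368). With all 6 arrays kept it passed with array weights, at -1.39 (limma adjusted p = 0.0197). Platelet and megakaryocyte markers had median shifts of 0.02, -0.04 and -0.12 in KO replicates 1 to 3, and 4 of 7 were of low signal. Of the 7, 5 differed downward and 2 upward. Itgb3 alone was called, higher by 1.04 (limma adjusted p = 0.00771). Their summed linear level was 656 to 792 in KO against 498 to 508 in WT. Neutrophil markers shifted by 3.71, 0.33 and 0.06 in KO replicates 1 to 3. The part of either list in the Rgs18 levels was not tested.

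Rgs2, Rgs1 and Rgs18 belong to the same stretch of chromosome 1, with Rgs13 between Rgs2 and Rgs1 and Rgs21 between Rgs1 and Rgs18. Along this stretch Rgs2 differed by 0.07, Rgs13 by -0.01, Rgs1 by -1.80, Rgs21 by -0.22 and Rgs18 by -1.14. Rgs13 and Rgs21 were of low signal. The outer neighbours Uchl5 and Brinp3 differed by -0.29 and 0.02, and neither passed the threshold (limma adjusted p = 0.425 and 0.972).

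**Figure D3:**
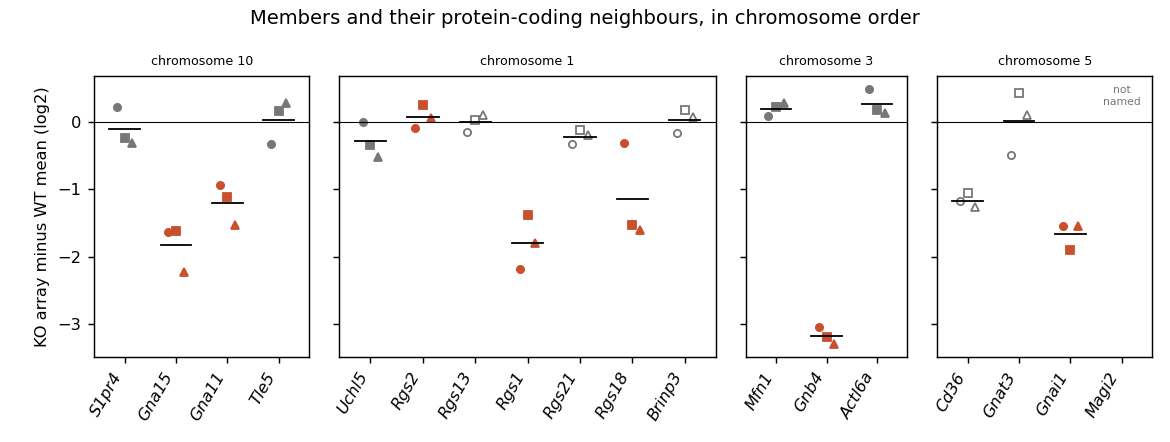
Each KO array minus the WT mean (log2) for 5 called members, other members beside them and protein-coding neighbours in chromosome order, with symbols for KO replicates 1 to 3 and a line at the mean. Members are orange, other genes grey, open symbols mark low signal, and 1 neighbour has no named probe set. Gna15 and Gna11 are low side by side, while Rgs1 and Rgs18 are separated by Rgs21, at -0.22, and Gnb4 is low between neighbours at 0.19 and 0.26.

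Rgs12, a large RGS protein that also binds Ras and acts as a scaffold, was the 1 member called higher. That is 2.38% of the measured members, near the 2.3% of all genes. Rgs12 read 5.59, 5.23 and 5.71 in WT and 6.22, 6.25 and 6.40 in KO. The groups did not overlap, and KO was 1.71-fold higher, a difference of 0.78 (SE 0.15, limma adjusted p = 0.0287). It did not pass when any of WT replicates 1 and 2 and KO replicates 2 and 3 was left out (0.0602 to 0.116). Rgs14, of the same subfamily, differed by -0.10 with overlapping groups.

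The remaining RGS genes did not pass. Rgs3 read 6.49, 6.07 and 6.50 in WT and 7.44, 6.69 and 6.71 in KO on its brighter probe set, a difference of 0.59 (limma adjusted p = 0.249), with KO replicate 1 the highest. Its second probe set differed by 0.00. That probe set lay under the low-signal limit, with means of 4.98 in WT and 4.99 in KO, and gives no check of the first. Rgs16, an RGS gene induced by activation, read 5.72, 5.75 and 5.72 in WT and 6.21, 5.73 and 6.27 in KO, with KO replicate 2 inside the WT range. Rgs19 differed by -0.23 with overlapping groups. Rgs9 differed by -0.07 with groups that did not overlap, and the other 7, Rgs4, Rgs5, Rgs7, Rgs8, Rgs11, Rgs17 and Rgs20, were of low signal.

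Isoform use was compared within arrays, by subtracting the log2 level of 1 member from that of a relative, for 16 pairs that could be measured of 18 chosen. An exact two-sided permutation test of 3 against 3 arrays cannot go below p = 0.10, which is 0.16 after Benjamini-Hochberg adjustment over the 16 pairs. That value, reached by 10 pairs, means only that KO and WT arrays did not overlap, and no share over other gene pairs was computed. The pairs were chosen with earlier results of these data known. A pair that holds a called member carries the change of that member and is no separate support for it. The balance of Gnb4 against Gnb1 moved from -0.80, -1.64 and -0.89 in WT to -4.16, -4.78 and -4.97 in KO, a change of -3.53. Against Gnb2 the change was -3.18. All 3 KO values of Gnb4 were under the low-signal limit, so both changes may be understated, and both carry the fall of Gnb4 given above. The same limit holds for pairs with Gnai1 or Gna15 in some KO arrays. Among inhibitory subunits, Gnai1 against Gnai3 moved from -1.23 ± 0.20 to -3.23 ± 0.42 (SD, n = 3 each; exact permutation p = 0.10), while Gnai2 against Gnai3 changed by -0.38 with overlapping arrays (exact permutation p = 0.30).

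Other classes held pairs that moved and pairs with overlapping arrays. Gnaq against Gna11 moved from 0.22 ± 0.32 to 1.33 ± 0.36 (SD, n = 3 each; exact permutation p = 0.10), and Rgs1 against Rgs2 from 0.46 ± 0.15 to -1.40 ± 0.23 (exact permutation p = 0.10). Gng2 against Gng7 changed by -0.60 with all KO arrays below all WT arrays. The balance of Gna12 and Gna13 changed by -0.02 and that of Gnb1 and Gnb2 by 0.35, both with overlapping arrays. Unequal change within an array does not show that either member stayed the same.

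**Figure D4:**
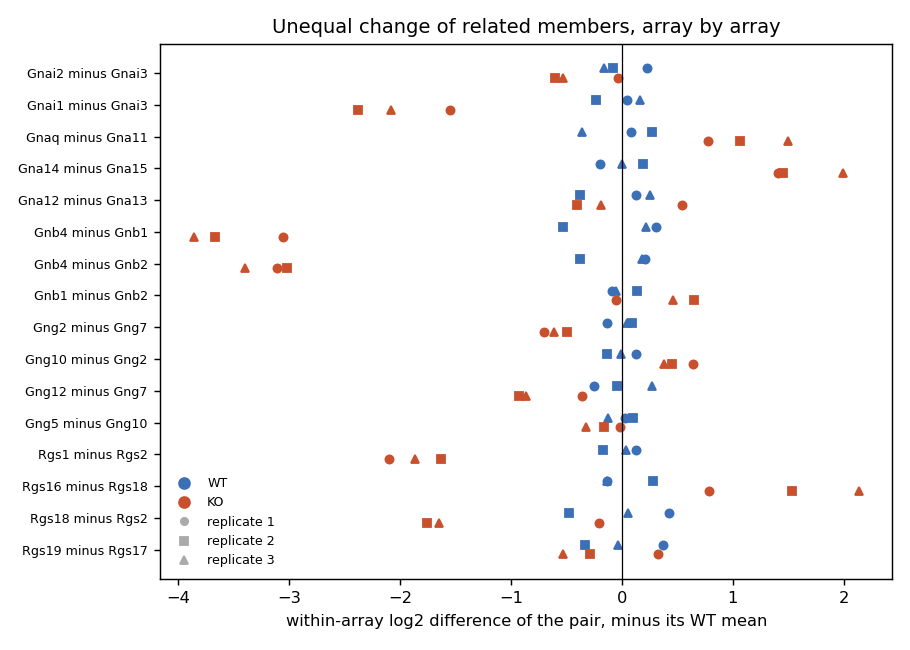
Within-array log2 difference of 16 pairs of members, minus the WT mean of that pair, for WT (blue) and KO (orange) arrays, with symbols for replicates 1 to 3. The KO arrays of Gnb4 minus Gnb1 and Gnb4 minus Gnb2 lie farthest from 0, and those of Gna12 minus Gna13 overlap the WT arrays.

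Other genes of the pathway were read from lists chosen by function. Limma called 10 of the 100 measured higher in KO and 9 lower, 19.0% against 4.38% of all genes, with a median difference of 0.02. The lists were chosen with earlier results of these data known, so these shares describe the lists and are no test of them. The subunits outside the 44 did not pass: 0 of 6 were called, and 1 of 6 had an unadjusted limma p under 0.05. Among these Gngt2, a gamma subunit known from cone cells, read 9.44, 8.69 and 8.60 in WT and 8.83, 7.45 and 7.39 in KO, high in KO replicate 1 as Rgs18 was (difference -1.02, limma adjusted p = 0.263). Of 10 further RGS domain genes and RGS partners 0 were called, and 2 had an unadjusted limma p under 0.05. Rgs7bp, which anchors the R7 RGS and Gnb5 complex to the membrane, read 6.86, 5.64 and 6.55 in WT and 8.03, 7.51 and 7.53 in KO (difference 1.34, limma adjusted p = 0.0584).

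Activators, kinases and direct effectors of G proteins changed in few members. Of 7 chaperones and activators, Ccdc88a alone was called. It encodes girdin, which activates Gi subunits without a receptor, and read 9.60, 9.24 and 9.55 in WT and 7.89, 7.63 and 7.54 in KO (difference -1.78, SE 0.15, limma adjusted p = 0.000816). Of 9 effectors of Gq and of beta and gamma dimers, Plcb4, a phospholipase C beta, fell by 0.95 (limma adjusted p = 0.042), and it did not pass when any of WT replicates 1 and 3 and KO replicates 2 and 3 was left out (highest adjusted p 0.155). None of 7 receptor kinases and arrestins and none of 4 effectors of G12 and G13 passed in limma. At an unadjusted limma p under 0.05 there were 1 and 0, where 3203 of all 19937 genes were.

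Genes of the cyclic AMP arm, which make, break down or respond to cyclic AMP, were called more often higher than lower. Their RNA levels do not give the level of cyclic AMP. Of 23 measured, 5 were called higher and 1 lower, 21.7% and 4.35%, where 2.3% and 2.08% of all genes were. The median difference was 0.12. Pde3b, a phosphodiesterase that breaks down cyclic AMP, read 3.63, 3.65 and 3.34 in WT and 6.80, 7.06 and 7.07 in KO, a rise from under the low-signal limit in all WT arrays (difference 3.44, SE 0.14, limma adjusted p = 2.8e-05). Pde4b, another such enzyme, rose by 1.48 (0.0208), Adcy9, an adenylyl cyclase, by 0.96 (0.00299), Prkar2b, a regulatory subunit of protein kinase A, by 0.81 (0.0165), and Creb1, a transcription factor activated by that kinase, by 0.72 (0.00972). Prkar2a, a second regulatory subunit, fell by 0.78 (limma adjusted p = 0.0391) and was of low signal. Without KO replicate 3 the calls of Pde4b, Prkar2b, Prkar2a and Creb1 were lost, and without KO replicate 2 or WT replicate 2 those of Pde4b and Prkar2b. The call of Prkar2a was lost also without any of the WT replicates. The calls of Pde3b and Adcy9 held without any single array.

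Receptors that signal through these subunits changed in both directions. Of 34 measured leukocyte receptors 6 were called lower and 5 higher, 17.6% and 14.7%, where 2.08% and 2.3% of all genes were. The median difference was 0.10. Those that fell were Cxcr3, the chemokine receptor read at 10.64, 9.54 and 9.67 in WT and at 6.63, 6.45 and 5.70 in KO (difference -3.69, limma adjusted p = 0.00139), the nucleotide receptors P2ry6 (-3.02), P2ry12 (-2.60) and P2ry13 (-1.65), the chemerin receptor Cmklr1 (-1.02), and Ccr9, a receptor for gut homing (-0.97). Those that rose were Gpr174, a lysophosphatidylserine receptor, by 1.65 (limma adjusted p = 0.00144), Ccr1 by 1.44, the lymph node homing receptor Ccr7 by 1.24, Gpr18 by 1.16 and Gpr183, an oxysterol receptor, by 0.96. Receptors of Gi are found on both sides: P2ry12 and Cxcr3 fell and Ccr7 rose. With single arrays left out, Ccr1, Ccr9, Gpr183 and Gpr18 each failed the threshold in 4 of 6 cases (replicates 2 and 3 of both genotypes). Cmklr1 failed in 4 (WT replicates 1 and 3, KO replicates 2 and 3) and Ccr7 in 1 (KO replicate 2). Ccr1 had low mean signal.

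**Figure D5:**
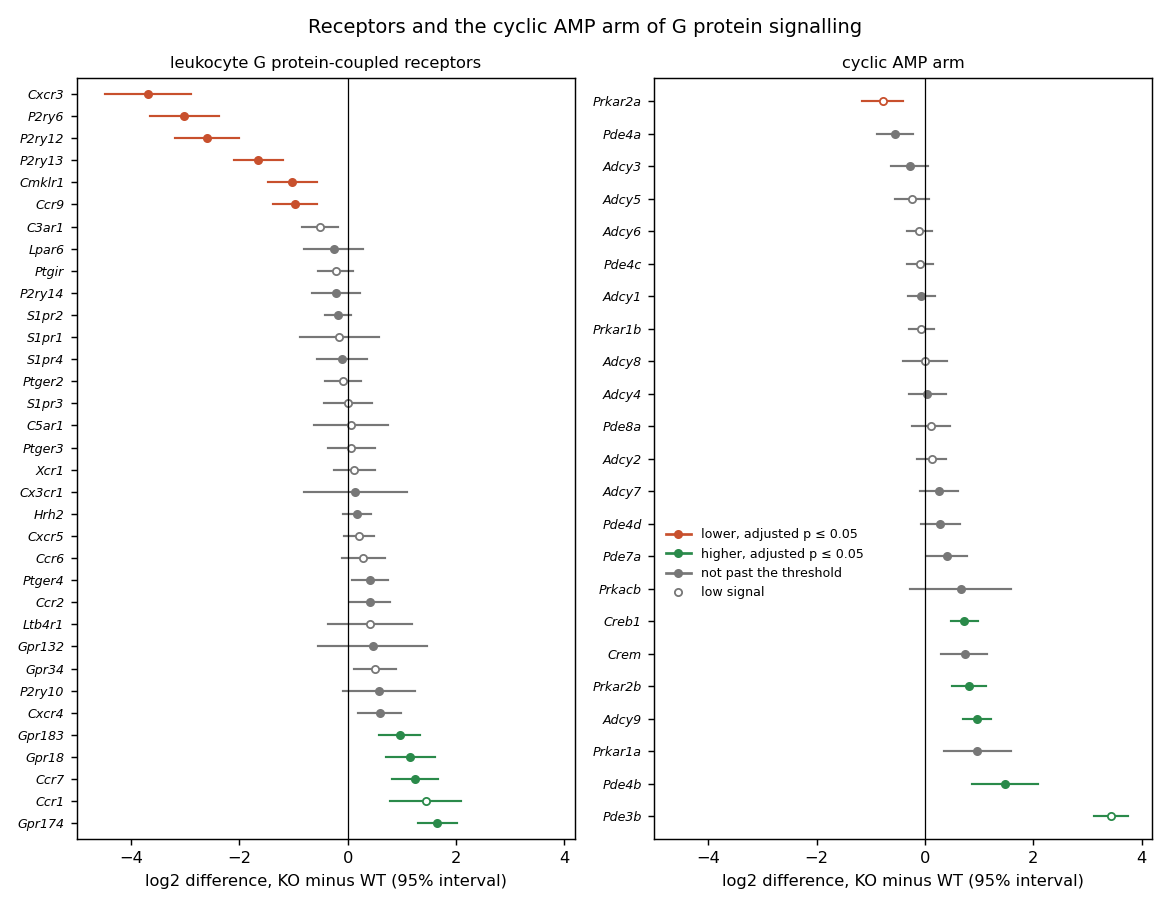
Log2 difference, KO minus WT, of 34 leukocyte G protein-coupled receptors (left) and 23 genes of the cyclic AMP arm (right), each ordered by difference, with the 95% interval of the limma fit. Orange genes were lower and green genes higher at an adjusted p of 0.05, and open symbols mark low signal. Cxcr3, at -3.69, and Pde3b, at 3.44, lie at the ends.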

How the data were processed

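RNA was measured on Affymetrix arrays in 3 WT and 3 KO samples, grouped by their titles. The authors deposited log2 levels, 1 per probe set and array (34760 probe sets), and per the labels' protocols a NuGen PICO SL amplification and biotin labelling came before hybridisation. That the scale is log2 was inferred from the range of values. How the authors corrected background, summarised and normalized is not given in the sources used here. Array medians nearly coincide, so a change of all transcripts one way cannot be seen. Precision is limited by the number of arrays.

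The platform annotation gave the gene names: 21640 had 1 symbol, 1321 several and 11799 were not listed. By Entrez identifier 21553 matched RefSeq genes (GRCm38.p6). Of 19937 genes, 954 had several probe sets. Genotypes were compared with limma 3.58.1 (R 4.3.3), lmFit and eBayes, two-sided, without covariates or filter on dim genes. The fit was tested on simulated data. Alternatives were quantile normalization, centred medians, bright genes (mean above 5.69), the mean of probe sets, RefSeq-matched probe sets, a variance trend, a block for the replicate number, array weights (statmod 1.5.0), each array left out, both arrays numbered 1 left out and an unequal-variance test. Members past the threshold are named array by array, other members by value or range, and of pathway lists up to 6 called genes. All 11 called receptors are named, 5 of them beyond that rule. Figures were drawn with matplotlib 3.10.9. The members, lists and pairs were chosen with earlier results of these data known.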

Additional observations from a re-analysis of the deposited data

How the results depend on the processing

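Counted afresh over the 42 members, the other settings, single arrays left out aside, called 5 to 8 lower and 1 higher (6 and 1 in the report), except the unequal-variance test, with 0 and 0. Leaving out single arrays gave 4 to 7 lower and 0 to 2 higher members. Pathway genes numbered 4 to 13 higher and 5 to 11 lower without single arrays, 0 and 0 by the unequal-variance test, and 15 higher with the replicate block or without both arrays numbered 1. Over all genes, 459 higher and 415 lower became 716 and 647 with array weights, 741 and 641 without both arrays numbered 1, 2 and 2 by the unequal-variance test, and 249 to 780 and 202 to 719 without single arrays. Without both arrays numbered 1, Gng12 minus Gng7 changed by -1.01 in place of -0.71. No called difference changed sign. Among pairs with overlapping arrays, Gna12 minus Gna13 (-0.02) was 0.01 with quantile normalization and ran from -0.30 to 0.17 without single arrays, and Rgs19 minus Rgs17 (-0.17) ran from -0.41 to 0.02.

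The titles give replicate numbers without saying whether they pair the samples, and the values do not settle it. Deviations of same-numbered arrays correlated at 0.379, 0.0968 and 0.252. WT replicate 1 correlated with KO replicates 2 and 3 at -0.275 and -0.287. KO replicate 2 correlated best with WT replicate 3, at 0.200. The replicate block gave 707 higher and 655 lower genes and 1 higher and 6 lower members. Gng2 no longer passed (limma adjusted p = 0.0628) and Rgs18 did (0.036). With array weights Rgs18 (0.0197) and Gng12 (0.0498) passed as well.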
